A study of Mus musculus with 6 samples.

Results

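The NF-kB genes described here are 41 genes for the transcription factor subunits of NF-kB, their inhibitors, the kinases, receptors and adaptors that activate them, the enzymes that switch them off, and a few direct targets. They were taken as the rows whose symbol equals a name on a list of 41 symbols, out of 55453 symbols in the count table, and all 41 were found. The 6 libraries were made from poly(A) RNA of SB28, a glioma line of C57BL/6 mice. Their labels name 3 as PP2Ac knockout and 3 as PP2Ac wild type, PP2Ac being the catalytic part of the phosphatase PP2A, and give no treatment or time. The series' design text instead describes tumours of SB28 in mice with a floxed PP2Ac gene and LysM-driven Cre, which acts in myeloid cells, so the labels leave unsettled which cells carried the deletion. Library totals lay between 40245915 and 46149908 counts in the knockout group and between 38735864 and 49344079 counts in the wild-type group.

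NF-kB is a family of dimeric transcription factors that is held in the cytoplasm by IkB proteins in resting cells. In the canonical arm, receptors for interleukin-1, tumour necrosis factor or microbial products act through adaptors and the kinase TAK1 on the IKK complex, which marks IkB for destruction and frees dimers that contain RelA or c-Rel. In the noncanonical arm, the kinase NIK escapes its constant destruction by a complex of TRAF3, TRAF2 and the cIAP ligases, and works through IKK alpha to convert p100 into p52, the partner of RelB. Many of the genes that NF-kB switches on encode its own brakes, such as IkB alpha and A20. In gliomas this pathway is known for inflammatory and mesenchymal gene programmes. Protein phosphatase 2A removes phosphates from serine and threonine residues, the residues on which these kinases act.

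Ppp2ca encodes the targeted protein. It was at 217, 187 and 193 CPM in the knockout libraries, against 274, 244 and 247 CPM in the wild-type libraries, and its log2 fold change was -0.36 (adjusted p = 0.00377, SE 0.08). The message was therefore lower but abundant in the knockout group, and exons of opposite-strand genes cover 41.3% of its exon bases. CPM is the count relative to the library total after scaling between libraries, a unit comparable across them, and a fold change is knockout over wild type throughout. Markers of blood-borne cells were near 0. The 10 myeloid markers summed to 5.12 to 5.57 CPM in the knockout libraries and 3.35 to 3.73 CPM in the wild-type libraries, mostly Cd68, with Adgre1 and Tyrobp at 0. Lyz2, the gene of the LysM promoter, had 44 counts in the knockout group and 1 in the wild-type group. Fcer1g was higher too, with 37 counts in the knockout and 16 in the wild type. Ptprc went the other way, with 11 counts in the knockout and 31 in the wild type, as did Csf1r, with 10 in the knockout and 23 in the wild type. The 9 lymphoid markers summed to 0.0488 to 0.128 CPM in the knockout libraries and 0.00 to 0.0979 CPM in the wild-type libraries, with 6 of them at 0. Of the 9 glioma markers, 7 were above 1 CPM, while Olig2 was at 0 and Gfap near it, and the list summed to 3926 to 4027 CPM in the knockout libraries and 6786 to 6908 CPM in the wild-type libraries. Most of that difference was Vim, at 1882 CPM in the knockout and 4791 CPM in the wild type, whereas Pdgfb was higher, at 488 CPM in the knockout and 361 CPM in the wild type. Of the 7 endothelial markers, Cldn5 was at 0 and Pecam1 and Tie1 were below 1 CPM, while Cdh5 was at 395 CPM or more in every library. The libraries numbered 1 stood apart from the others in both groups, and results that change without them are marked.

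Most of the NF-kB genes differed between the groups, and more of them were higher than lower in the knockout. Of the 41 genes, 39 passed the filter on low counts, and Nfkbid and Icam1 did not. At an adjusted p of 0.05, 24 of the 39 rose and 9 fell, while Bcl3, Map3k7, Ikbkb, Irak2, Ripk2 and Tnip2 did not pass. Over all 14877 genes tested, 64.0% passed, 31.9% higher and 32.1% lower, so a call by itself is common in this comparison. The share that rose among the 39 was 61.5% and the share that fell was 23.1%. The median log2 fold change was 0.61 over the 39 and -0.01 over all genes tested. Of the 39, 12 rose at least 2-fold and 1 fell at least 2-fold, where 11.0% of all genes tested rose and 10.7% fell that far. In 26 of the 39 every knockout library was above every wild-type library and in 10 every one was below, and such separation was seen in 68.3% of all genes tested. Saa3 passed the filter through the knockout libraries alone, so the filter favoured a difference and its call carries little weight. Among the other 38 genes, 23 rose, 9 fell and 6 did not pass, with 0.58 as the median log2 fold change. Against a fold change of 1.5 instead of 1, 14 of the 39 NF-kB genes rose and 3 fell. Of all 14877 genes tested, 2009 rose and 1957 fell in that test.

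**Figure D1:**
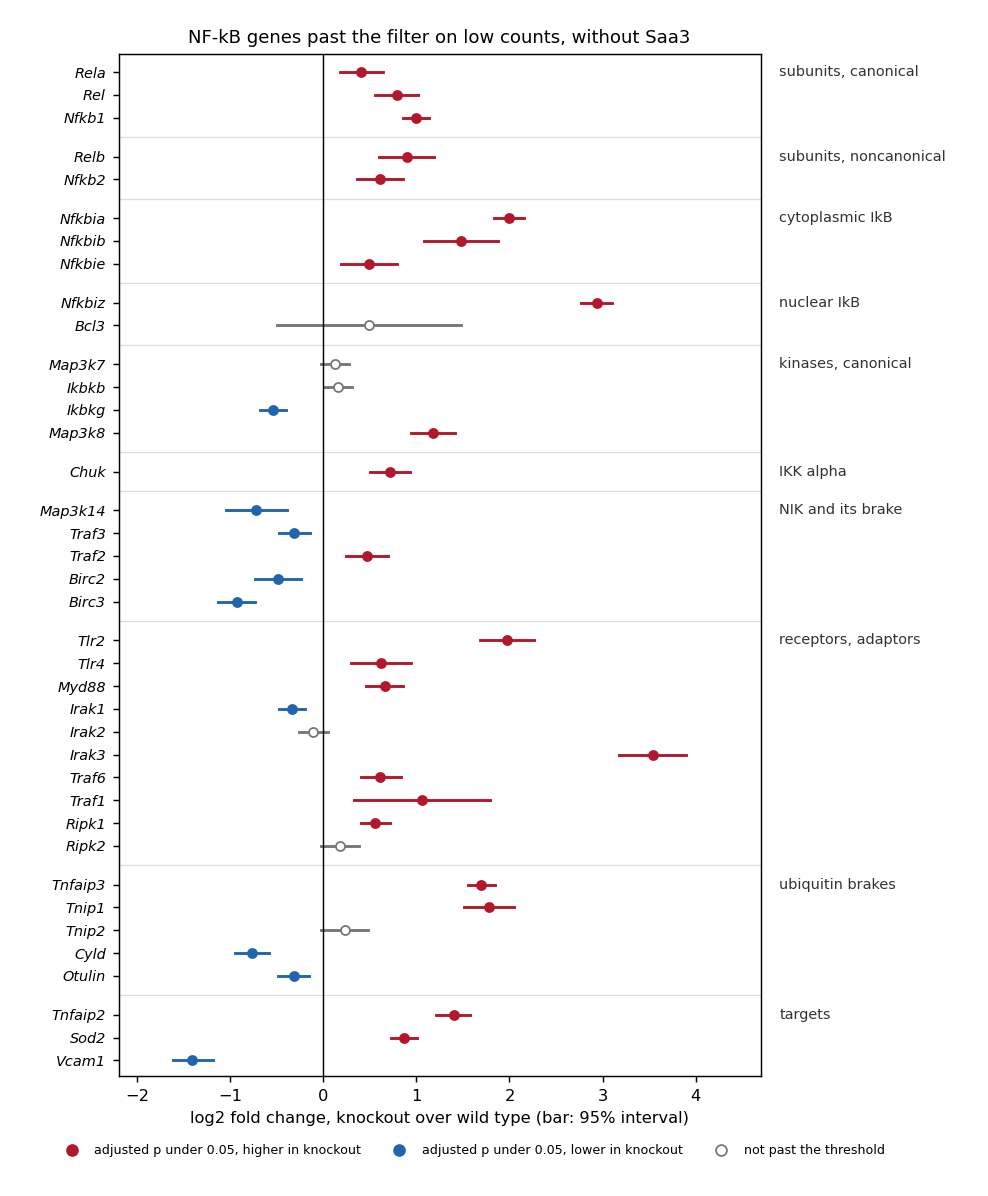
Log2 fold change, knockout over wild type, of 38 NF-kB genes past the filter on low counts, ordered by role, with 95% intervals as bars. Saa3, at 8.69, is left out for scale. Irak3 (3.54) and Nfkbiz (2.94) lie furthest to the right, while NIK (Map3k14), Traf3, Birc2 and Birc3 lie left of 0.

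The promoters of NF-kB genes often carry the sites that NF-kB itself binds, and the stretches around the starts of 7 genes are shown for that reason. They are 300 bases long, 250 before and 50 from the annotated start onward, from RefSeq on GRCm38.p6, the build the submitters' notes name as mm10 or GRCm38. Capitals mark matches to the general kappaB consensus on either strand, with overlapping matches joined. The first 5 genes rose and carry matches, Saa3 rose by the largest factor and carries none, and Birc3 fell and carries none. The windows are Nfkbia at chr12:55492598-55492897, Tnfaip3 at chr10:19015361-19015660, Tnip1 at chr11:54962891-54963190, Tlr2 at chr3:83841559-83841858, Saa3 at chr7:46715627-46715926 and Birc3 at chr9:7873121-7873420, all on the minus strand, and Nfkb2 at chr19:46304487-46304786 on the plus strand.
Nfkbia: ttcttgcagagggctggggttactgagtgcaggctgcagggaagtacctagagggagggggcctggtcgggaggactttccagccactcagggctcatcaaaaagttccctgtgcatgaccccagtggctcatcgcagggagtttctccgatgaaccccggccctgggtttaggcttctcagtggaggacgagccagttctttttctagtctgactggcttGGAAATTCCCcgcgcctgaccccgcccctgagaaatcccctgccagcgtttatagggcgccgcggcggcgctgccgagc
Tnfaip3: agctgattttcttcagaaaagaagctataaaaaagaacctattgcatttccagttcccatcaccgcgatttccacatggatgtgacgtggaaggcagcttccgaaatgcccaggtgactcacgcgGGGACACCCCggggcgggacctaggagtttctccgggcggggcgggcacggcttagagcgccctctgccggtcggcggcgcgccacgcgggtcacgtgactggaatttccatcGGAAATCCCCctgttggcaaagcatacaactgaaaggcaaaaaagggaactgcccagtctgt
Tnip1: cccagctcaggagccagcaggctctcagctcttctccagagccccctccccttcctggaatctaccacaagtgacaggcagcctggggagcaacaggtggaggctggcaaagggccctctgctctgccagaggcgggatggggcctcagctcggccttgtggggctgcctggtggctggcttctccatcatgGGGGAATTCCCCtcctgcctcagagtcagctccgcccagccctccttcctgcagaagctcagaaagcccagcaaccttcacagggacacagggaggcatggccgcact
Tlr2: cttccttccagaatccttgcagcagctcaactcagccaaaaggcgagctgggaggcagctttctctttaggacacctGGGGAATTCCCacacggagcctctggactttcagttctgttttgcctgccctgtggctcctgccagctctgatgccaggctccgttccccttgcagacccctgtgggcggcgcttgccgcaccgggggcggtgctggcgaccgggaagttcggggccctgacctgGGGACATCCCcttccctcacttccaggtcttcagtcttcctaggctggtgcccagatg
Nfkb2: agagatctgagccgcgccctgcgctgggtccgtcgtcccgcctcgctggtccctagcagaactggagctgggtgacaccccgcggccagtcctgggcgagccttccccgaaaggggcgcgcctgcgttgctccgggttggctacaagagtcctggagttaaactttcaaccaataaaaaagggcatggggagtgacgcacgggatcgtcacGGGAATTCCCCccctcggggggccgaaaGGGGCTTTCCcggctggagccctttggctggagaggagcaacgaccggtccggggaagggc
Saa3: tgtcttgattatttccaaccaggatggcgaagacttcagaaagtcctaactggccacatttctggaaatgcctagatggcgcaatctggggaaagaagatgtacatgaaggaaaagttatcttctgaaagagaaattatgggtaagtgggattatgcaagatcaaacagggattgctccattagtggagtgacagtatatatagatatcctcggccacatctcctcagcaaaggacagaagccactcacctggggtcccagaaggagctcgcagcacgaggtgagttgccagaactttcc
Birc3: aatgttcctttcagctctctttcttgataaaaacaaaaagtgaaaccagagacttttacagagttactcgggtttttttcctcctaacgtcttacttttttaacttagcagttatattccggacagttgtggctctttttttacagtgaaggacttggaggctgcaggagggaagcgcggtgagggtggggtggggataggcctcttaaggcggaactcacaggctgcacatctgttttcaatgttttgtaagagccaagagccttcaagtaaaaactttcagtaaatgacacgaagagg

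Windows were given for 33 of the 41 genes, and 15 of the 33 (45.5%) held at least 1 kappaB match. Among all 27025 genes with a window the share was 9.55%, and among the 10678 of them that were tested it was 12.4%. By window, 18 of 45 held a match, against 8.46% of all 32851 windows. Of the 19 genes with a window that rose, 9 held a match, namely Rel, Nfkb2, Nfkbia, Nfkbie, Tlr2, Tnfaip3, Tnip1, Tnfaip2 and Sod2. Of the 8 that fell, 3 did, namely Traf3, Irak1 and Cyld. Bcl3 and Map3k7, which did not pass the threshold, and Nfkbid, which was below the filter, held matches as well. The list was put together to include known targets of NF-kB, so this share is a description. The genes Nfkb1, Relb, Nfkbiz, Ikbkb, Map3k8, Tlr4, Ripk2 and Vcam1 had no window.

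**Figure D2:**
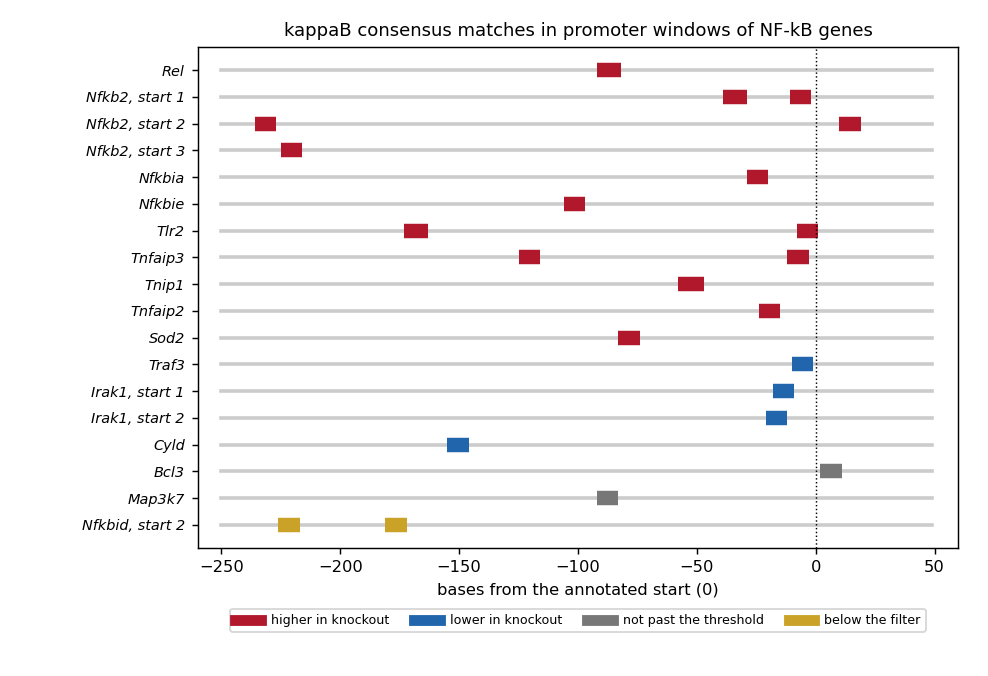
Positions of kappaB consensus matches in promoter windows of NF-kB genes, in bases from the annotated start; grey lines are the windows and coloured blocks the matches, coloured by the call of the gene. Genes with several annotated starts have a line for each start with a match. The matches of Nfkbia, Tnfaip2, Traf3 and Irak1 all start between 29 and 10 bases before the start, among genes that rose and genes that fell.

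All 5 subunit genes rose in the knockout, by 1.33-fold to 2.01-fold. Nfkb1 (ENSMUSG00000028163.17, chromosome 3, 135584655 to 135691547, minus strand, GRCm38) encodes p105, the precursor of p50. It was at 235, 238 and 245 CPM in knockout 1, 2 and 3, against 115, 122 and 121 CPM in wild type 1, 2 and 3. The groups were well apart, and the gene rose 2.01-fold (95% interval 0.86 to 1.14 on the log2 scale, adjusted p = 1.47e-06). Rela, which encodes p65, the main activating subunit of the canonical arm, was at 119, 143 and 143 CPM in knockout libraries and 90.2, 109.7 and 106 CPM in wild-type libraries. In both groups library 1 was the lowest, and the log2 fold change was 0.41 (adjusted p = 0.00646, SE 0.10). Rel, the gene of c-Rel, reached 34.4, 28.0 and 32.0 CPM in the knockout and 19.3, 18.8 and 16.6 CPM in the wild type (log2 fold change 0.79, adjusted p = 0.000148, SE 0.10).

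Of the noncanonical subunits, Relb was at 38.6, 53.0 and 50.3 CPM in the knockout and 22.3, 26.9 and 27.0 CPM in the wild type. It rose by 0.90 on the log2 scale (adjusted p = 0.000299, SE 0.13), with library 1 again the lowest of each group. Nfkb2, the gene of p100 and p52, was at 161, 202 and 199 CPM in the knockout and 108, 132 and 128 CPM in the wild type (log2 fold change 0.61, adjusted p = 0.00103, SE 0.11). Exons of opposite-strand genes, among them Psd at 3.57 CPM in the knockout and 2.08 CPM in the wild type, cover 18.1% of the exon bases of Nfkb2, and the strand setting of the counting is not given in the sources used here.

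Levels of different genes were compared as CPM per kilobase of annotated exon. In the knockout libraries Rela (44.0 ± 4.49, SD, n = 3) and Nfkb2 (40.8 ± 4.88) lay within 1 SD of each other, followed by Nfkb1 (19.8 ± 0.429), Relb (12.2 ± 1.97) and Rel (4.21 ± 0.433). The order of means was the same in the wild-type libraries, with Rela at 33.2 ± 3.36, Nfkb2 at 26.7 ± 2.83, Nfkb1 at 9.88 ± 0.335, Relb at 6.53 ± 0.681 and Rel at 2.44 ± 0.193. As a share of the summed level of the 5 genes, Nfkb1 made up 18.0%, 15.4% and 15.9% in the knockout libraries and 13.4%, 12.0% and 12.3% in the wild-type libraries. The share of Rela was 35.9%, 36.5% and 36.5% in the knockout and 41.5%, 42.5% and 42.2% in the wild type. Shares of Nfkb1 and Rela thus did not overlap between the groups, while that of Nfkb2 averaged 33.7% in the knockout and 33.9% in the wild type. The order of the genes and the size of their shares depend on the joined exon lengths. These are 12061 bases for Nfkb1, 4584 for Nfkb2 and 3072 for Rela. In CPM without this division Nfkb1 had the highest knockout mean, 239 against 187 for Nfkb2 and 135 for Rela. In the wild-type libraries the CPM of Nfkb1 and Nfkb2 overlapped.

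**Figure D3:**
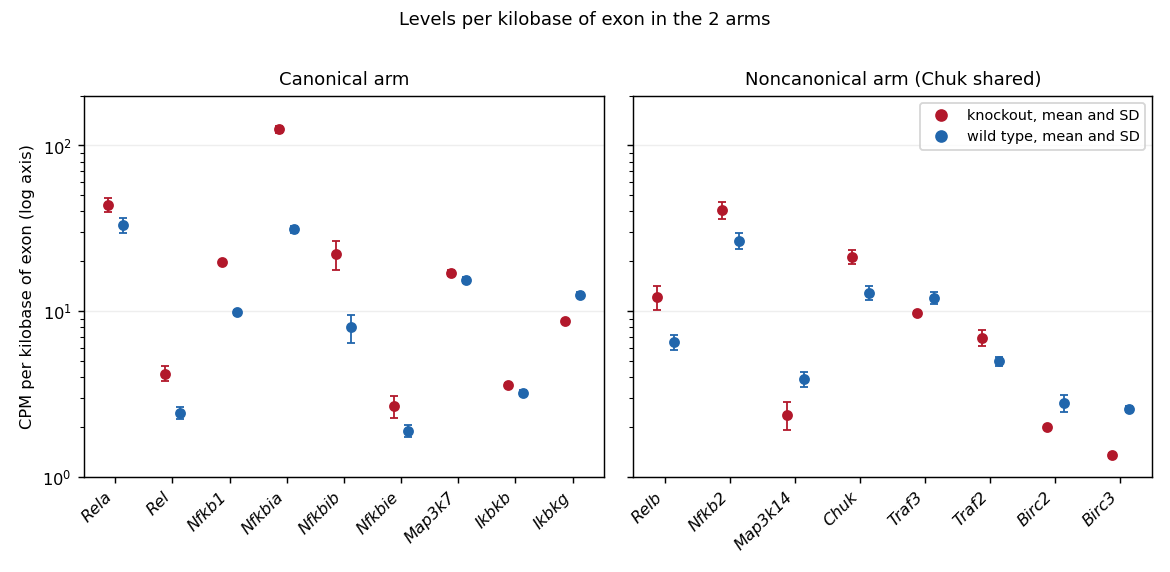
Mean CPM per kilobase of exon (log axis) of the canonical and noncanonical genes, with SD over 3 libraries as bars, knockout left of wild type for each gene. On this scale, which depends on the joined exon lengths, Nfkbia is the highest of these genes in the knockout, at 125 against 31.2 in the wild type. Birc3 is the lowest in the knockout, at 1.35 against 2.57 in the wild type.

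All 3 cytoplasmic inhibitors rose. Nfkbia (ENSMUSG00000021025.8, chromosome 12, 55489410 to 55492647, minus strand, GRCm38) encodes IkB alpha, which NF-kB itself induces and which ends the canonical response. It was at 188, 206 and 207 CPM in knockout 1, 2 and 3, against 50.0, 48.1 and 52.6 CPM in wild type 1, 2 and 3. Every knockout library was more than 3 times above every wild-type library, a rise of 3.99-fold (95% interval 1.83 to 2.16 on the log2 scale, adjusted p = 6.77e-08). Its promoter window, shown above, holds a match that starts 29 bases before the start. Nfkbib, the gene of IkB beta, was at 37.4, 52.7 and 54.7 CPM in the knockout and 13.6, 18.1 and 20.2 CPM in the wild type (log2 fold change 1.48, adjusted p = 9.14e-05, SE 0.18). Exons of the opposite-strand gene Sirt2 lie over part of Nfkbib, 16.4% of its exon bases being covered, and Sirt2 was higher too, at 83.7 CPM in the knockout and 49.0 CPM in the wild type. Its part in the value of Nfkbib was not tested. Nfkbie, the gene of IkB epsilon, was at 6.88, 9.27 and 8.25 CPM in the knockout and 5.31, 6.19 and 5.87 CPM in the wild type, a log2 fold change of 0.49 (adjusted p = 0.00927, SE 0.13). Per kilobase of exon, Nfkbia made up 83.4% of the summed level of these 3 inhibitors in the knockout and 76.0% in the wild type, and Nfkbie 1.78% in the knockout and 4.63% in the wild type.

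The nuclear IkB proteins act as partners of NF-kB dimers on DNA rather than as cytoplasmic anchors, and only Nfkbiz was well expressed among them. This gene of IkB zeta, which is needed for a set of secondary response genes in mouse macrophages, was at 189, 193 and 195 CPM in the knockout and 23.4, 26.4 and 25.5 CPM in the wild type. Its log2 fold change of 2.94 (adjusted p = 1.08e-08, SE 0.07) was 7.65-fold, with little spread in either group. Bcl3, a nuclear partner of p50 and p52 homodimers, had 43 counts in the knockout and 33 in the wild type, and its libraries overlapped. The log2 fold change of 0.49 had a 95% interval of -0.50 to 1.48 (adjusted p = 0.347), an interval that holds both no change and a 2-fold rise at this depth. Nfkbid, the gene of IkB NS, had 0 counts in the knockout and 1 in the wild type, and no fold is given.

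Among the kinases of the canonical arm, the catalytic subunits and the scaffold of IKK moved differently. Ikbkb, the gene of IKK beta, which phosphorylates IkB alpha, was at 66.6, 69.6 and 69.1 CPM in the knockout and 58.3, 62.5 and 63.0 CPM in the wild type. The groups did not overlap, but the log2 fold change was 0.16 (95% interval 0.01 to 0.31, adjusted p = 0.0607), and it passed with the replicate number as a block (0.00125), without both libraries numbered 1 (0.00231) and with DESeq2 (0.0412). Ikbkg, the X-linked gene of the scaffold NEMO, was at 69.3, 71.4 and 70.4 CPM in the knockout and 104, 105 and 98.6 CPM in the wild type. It fell by 0.54 on the log2 scale (adjusted p = 7.13e-05, SE 0.06), with 5.2% of its exon bases under the opposite-strand gene G6pdx. Chuk, the gene of IKK alpha, which serves both arms, was at 119, 99.5 and 105 CPM in the knockout and 72.9, 62.8 and 61.5 CPM in the wild type (log2 fold change 0.72, adjusted p = 0.000173, SE 0.10). Per kilobase of exon, Chuk made up 66.1%, 61.1% and 62.8% of the 3 IKK messages in the knockout libraries and 47.5%, 43.3% and 43.9% in the wild-type libraries. NEMO made up 24.1%, 27.5% and 26.3% in the knockout and 42.4%, 45.2% and 44.1% in the wild type, so neither share overlapped between the groups. Ikbkb averaged 10.7% in the knockout and 11.2% in the wild type. The size of these shares depends on the joined exon lengths, 19078 bases for Ikbkb, 5087 for Chuk and 8110 for Ikbkg.

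Map3k7, the gene of the upstream kinase TAK1, was at 114, 108 and 106 CPM in the knockout and 105, 97.6 and 97.0 CPM in the wild type. Its log2 fold change was 0.13 (95% interval -0.02 to 0.28, adjusted p = 0.117), and with the replicate block it passed at the same size (0.00291). Without both libraries numbered 1 it passed as well (0.14, adjusted p = 0.00189). Map3k8, the gene of TPL2, a kinase that p105 holds inactive and that drives the ERK pathway once released, was rarer, at 6.52, 6.15 and 6.44 CPM in the knockout and 2.68, 2.99 and 2.77 CPM in the wild type. It rose 2.26-fold (log2 fold change 1.18, adjusted p = 1.45e-05, SE 0.11).

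In the noncanonical arm the kinase NIK and most parts of the complex that degrades it were lower. Map3k14, the gene of NIK, was at 12.4, 15.7 and 18.4 CPM in the knockout and 22.5, 27.4 and 26.6 CPM in the wild type. The groups were apart although each varied, and the gene fell by 0.72 on the log2 scale (adjusted p = 0.00208, SE 0.14). Birc3 (ENSMUSG00000032000.17, chromosome 9, 7848699 to 7873186, minus strand, GRCm38) encodes cIAP2, a ubiquitin ligase that NF-kB is known to induce. It was at 7.04, 6.52 and 6.77 CPM in the knockout and 12.9, 13.4 and 12.4 CPM in the wild type, a fall of 0.93 on the log2 scale (adjusted p = 2.22e-05, SE 0.09). Its direction was opposite to that of Nfkbia, Tnfaip3 and Tnip1. The Birc3 window above holds no kappaB match, but neither do those of Rela, Nfkbib and Saa3, which rose. Traf3, Irak1 and Cyld fell and hold matches, and a link between matches and direction was not tested. Its neighbour and paralog Birc2, the gene of cIAP1, was at 9.25, 8.88 and 9.15 CPM in the knockout and 13.8, 11.0 and 13.4 CPM in the wild type (log2 fold change -0.49, adjusted p = 0.00337, SE 0.11). Reads that these paralogs share may have been dropped or split in the counting.

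Traf3, the adaptor that brings NIK to the ligases, was at 69.7, 71.6 and 73.5 CPM in the knockout and 81.4, 95.7 and 89.5 CPM in the wild type, a fall of 0.31 on the log2 scale (adjusted p = 0.00602, SE 0.08). Traf2, which links TRAF3 to the cIAPs and also serves the canonical arm, rose. It was at 31.0, 36.3 and 38.7 CPM in the knockout and 23.8, 25.9 and 27.0 CPM in the wild type (log2 fold change 0.47, adjusted p = 0.00292, SE 0.10). Of the 7 genes of this arm apart from Chuk, 3 rose (Relb, Nfkb2 and Traf2) and 4 fell (Map3k14, Traf3, Birc2 and Birc3), none of them 2-fold. Of the 9 genes of the canonical arm apart from Chuk, 6 rose (Rela, Rel, Nfkb1, Nfkbia, Nfkbib and Nfkbie), 1 fell (Ikbkg), and Ikbkb and Map3k7 did not pass, with 3 of the 6 at least 2-fold higher. Map3k8, which rose 2.26-fold, was counted in neither arm, and Traf2 in the noncanonical arm only. Over all genes tested, 31.9% rose and 32.1% fell. The arms were compared by these counts, and the difference between them was not tested. Against a fold change of 1.5, 4 genes of the canonical arm rose and 0 fell, and in the noncanonical arm 1 rose and 1 fell. Of all 14877 genes tested, 2009 rose and 1957 fell against that fold change.

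Of the 2 Toll-like receptors and 8 adaptors and kinases behind Toll-like, interleukin-1, NOD and tumour necrosis factor receptors, 7 rose, Irak1 fell, and Irak2 and Ripk2 did not pass. Tlr2, a receptor of bacterial lipoproteins, was at 16.3, 13.9 and 15.7 CPM in the knockout and 4.50, 3.79 and 3.35 CPM in the wild type. Its log2 fold change was 1.97 (adjusted p = 1.98e-06, SE 0.13), and its window above holds 2 matches. Tlr4, the receptor of lipopolysaccharide, was at 45.7, 33.2 and 35.4 CPM in the knockout and 28.8, 23.0 and 22.6 CPM in the wild type (log2 fold change 0.62, adjusted p = 0.00402, SE 0.14). For both receptors library 1 was the highest of its group. Myd88, the adaptor of most Toll-like and interleukin-1 receptors, was at 24.6, 28.9 and 25.8 CPM in the knockout and 16.4, 17.1 and 16.6 CPM in the wild type. It rose by 0.66 on the log2 scale (adjusted p = 0.000171, SE 0.09), and 11.3% of its exon bases lie under Acaa1a on the opposite strand, which was at 29.1 CPM in the knockout and 34.9 CPM in the wild type.

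Of the 3 IRAK genes on the list, Irak3 rose, Irak1 fell and Irak2 did not pass. Irak3, whose product IRAK-M blocks signalling by the other IRAK kinases and is best known from macrophages, was at 7.71, 6.32 and 6.46 CPM in the knockout and 0.568, 0.658 and 0.529 CPM in the wild type. This was 11.6-fold, a log2 fold change of 3.54 (adjusted p = 2.03e-07, SE 0.16). The myeloid marker sum was 5.12 to 5.57 CPM in the knockout libraries and 3.35 to 3.73 CPM in the wild-type libraries. That sum was mostly Cd68, at 4.43 CPM in the knockout and 3.01 CPM in the wild type. Lyz2 and Fcer1g were higher in the knockout, and Ptprc and Csf1r lower. The part of myeloid cells in the value of Irak3 was not tested. Exons of Tmbim4, at 43.8 CPM in the knockout and 24.5 CPM in the wild type, cover part of Irak3 on the opposite strand. Irak1, the X-linked gene of the kinase that MyD88 recruits, was at 107, 109 and 114 CPM in the knockout and 139, 141 and 137 CPM in the wild type, a fall of 0.34 on the log2 scale (adjusted p = 0.00109, SE 0.06). Irak2, a related kinase of the late response, was at 28.1, 28.5 and 29.1 CPM in the knockout and 30.8, 31.2 and 30.3 CPM in the wild type. Its groups did not overlap, but the log2 fold change of -0.11 had a 95% interval of -0.26 to 0.05 and did not pass.

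Traf6, the ubiquitin ligase downstream of the IRAK kinases, averaged 46.3 ± 4.16 CPM in the knockout and 30.3 ± 2.52 CPM in the wild type (SD, n = 3; log2 fold change 0.61, adjusted p = 0.000414). Ripk1, the kinase that tumour necrosis factor receptors recruit, averaged 53.0 ± 1.04 CPM in the knockout and 35.9 ± 1.68 CPM in the wild type (log2 fold change 0.56, adjusted p = 0.000108). Ripk2, which relays signals of the NOD receptors, was at 71.7, 61.2 and 61.2 CPM in the knockout and 61.9, 53.9 and 55.6 CPM in the wild type, so knockout 2 and 3 lay below wild type 1. Its log2 fold change was 0.18 (95% interval -0.02 to 0.38, adjusted p = 0.107), and within replicate numbers, as a block, it passed (0.000598). Without both libraries numbered 1 it passed too (0.17, adjusted p = 0.00133). Traf1, an adaptor that NF-kB induces, was scarce, with 0.852, 0.610 and 1.18 CPM in the knockout and 0.333, 0.363 and 0.579 CPM in the wild type. Its log2 fold change of 1.06 (adjusted p = 0.0175, SE 0.32) did not pass without knockout 3 (0.0675), without wild type 1 (0.0559) or without wild type 2 (0.0587), and its adjusted p ranged from 0.0022 to 0.112 over all alternatives.

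Of the 5 genes that edit or bind ubiquitin chains to stop NF-kB signalling, 2 rose (Tnfaip3 and Tnip1), 2 fell (Cyld and Otulin) and Tnip2 did not pass. Tnfaip3, the gene of A20, which removes and replaces ubiquitin on RIPK1 and TRAF6, was at 98.8, 97.1 and 101 CPM in the knockout and 30.7, 30.8 and 30.2 CPM in the wild type. Hardly any spread was seen in either group, and the log2 fold change was 1.69 (adjusted p = 7.47e-08, SE 0.06). Tnip1, whose product ABIN-1 binds A20 and ubiquitin, was at 132, 164 and 171 CPM in the knockout and 39.6, 48.1 and 48.6 CPM in the wild type (log2 fold change 1.78, adjusted p = 2.46e-06, SE 0.12). Their windows, shown above, hold 2 matches and 1 match. Tnip2, the gene of ABIN-2, which stabilises TPL2, was at 11.2, 14.6 and 13.3 CPM in the knockout and 11.0, 10.8 and 11.7 CPM in the wild type. Knockout 1 lay among the wild-type libraries, and the log2 fold change was 0.23 (95% interval -0.02 to 0.48, adjusted p = 0.102). It passed with the replicate block (0.22, adjusted p = 0.0197), without knockout 1 (0.34, adjusted p = 0.00980) and without both libraries numbered 1 (0.32, adjusted p = 0.00142).

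Cyld and Otulin, deubiquitinases as A20 is, were lower. Cyld, which removes lysine-63 and linear chains from adaptors and NEMO, was at 58.4, 52.5 and 51.7 CPM in the knockout and 100.1, 86.7 and 89.7 CPM in the wild type. It fell by 0.77 on the log2 scale (adjusted p = 4.66e-05, SE 0.08). Otulin, which cleaves linear ubiquitin chains alone, was at 23.1, 22.9 and 22.3 CPM in the knockout and 27.4, 28.1 and 29.8 CPM in the wild type (log2 fold change -0.32, adjusted p = 0.00458, SE 0.07). Each of these genes had all knockout libraries below all wild-type libraries.

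**Figure D4:**
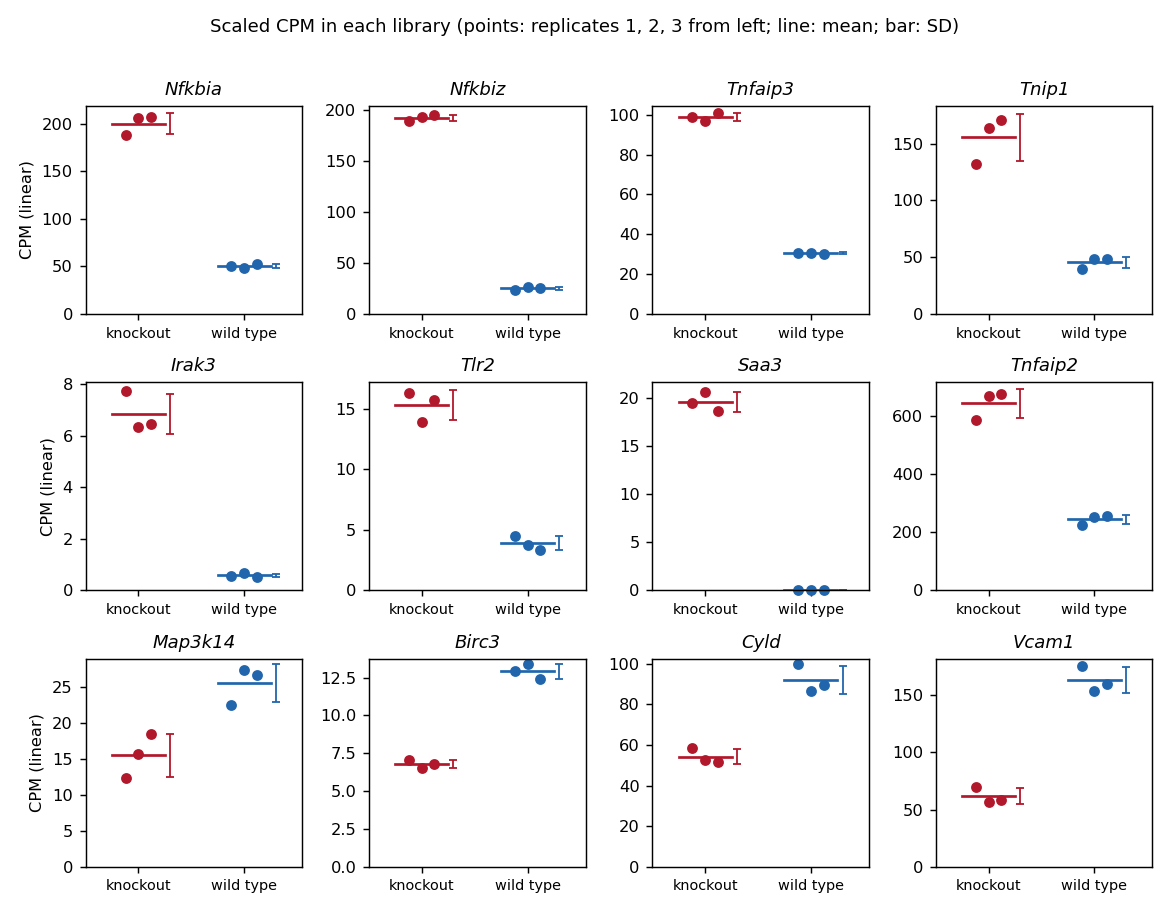
CPM in each library (linear axes from 0) of 12 NF-kB genes, with points for replicates 1, 2 and 3, a line for the mean and a bar for the SD, knockout left of wild type. The first 8 genes were higher in every knockout library, and Map3k14, Birc3, Cyld and Vcam1 lower in every one.

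The targets on the list did not move as a block. Saa3 (ENSMUSG00000040026.8, chromosome 7, 46711998 to 46715700, minus strand, GRCm38), an acute phase serum amyloid A gene, was almost silent in the wild type. It had 872, 844 and 728 counts in knockout 1, 2 and 3, against 4, 2 and 0 counts in wild type 1, 2 and 3, a ratio of 440.4 with a 95% counting interval of 202 to 1201. In CPM this was 19.6 ± 0.999 in the knockout and 0.0412 ± 0.0393 in the wild type, with a fitted log2 fold change of 8.69 (adjusted p = 2.50e-08). Saa3 passed the filter on low counts through the knockout libraries alone, so the filter favoured a difference and its call carries little weight. Tnfaip2, a target of tumour necrosis factor involved in membrane protrusions, was the most abundant of the 41 genes per kilobase of exon, at 129 ± 9.99 in the knockout, within 1 SD of Nfkbia, and 49.2 ± 3.28 in the wild type. Its CPM were 588, 671 and 676 in the knockout and 226, 254 and 255 in the wild type (log2 fold change 1.40, adjusted p = 1.13e-06, SE 0.08), with 6.3% of its exon bases under an antisense gene. Sod2, the mitochondrial superoxide dismutase, was at 97.2, 101 and 100.3 CPM in the knockout and 55.4, 53.3 and 55.0 CPM in the wild type (log2 fold change 0.87, adjusted p = 3.47e-06, SE 0.06).

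The adhesion molecules Vcam1 and Icam1, textbook targets of NF-kB in endothelium, differed from the other targets. Vcam1, which binds leukocyte integrins, was at 69.6, 56.6 and 58.5 CPM in the knockout and 176, 154 and 160.2 CPM in the wild type. All knockout libraries were below all wild-type libraries, and the gene fell by 1.41 on the log2 scale (adjusted p = 2.50e-06, SE 0.10), the only 2-fold fall among the 39. Icam1, also a ligand of leukocyte integrins, had 11, 3 and 1 counts in the knockout and 5, 2 and 5 counts in the wild type. That is 0.115 ± 0.116 CPM in the knockout and 0.0897 ± 0.0409 CPM in the wild type, and the ratio of 1.35 had a 95% counting interval of 0.591 to 3.16, which covers counting error only. The endothelial marker sum beside them was 424 to 462 CPM in the knockout libraries and 399 to 431 CPM in the wild-type libraries, nearly all of it Cdh5, and its part in these values was not tested.

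Genes of the pathway outside the 41 were counted in the same way. Of 49 further receptors, adaptors and regulators, 43 were tested, and of these 24 rose, 8 fell and 11 did not pass. Their median was 0.41 on the log2 scale. The shares were 55.8% higher and 18.6% lower, beside 31.9% higher and 32.1% lower over all genes tested. Of the 43, Nod2 and Cd40 passed the filter through the knockout libraries alone and Tlr5 and Tnfrsf11a through the wild-type libraries alone. For these genes the filter favoured a difference, and their calls carry little weight. Among the other 39, 22 rose, 6 fell and 11 did not pass, with 0.41 as the median. Of the further Toll-like receptors, Tlr3 (0.50) and Tlr6 (0.61) rose on the log2 scale, and Tlr1, Tlr7 and Tlr9 were below the filter. Tlr5, the flagellin receptor, fell, with 0, 3 and 0 counts in the knockout libraries and 32, 32 and 16 counts in the wild-type libraries. The 4 genes of this list with the smallest adjusted p all rose. Il1rap, the shared accessory chain of interleukin-1 family receptors, averaged 638 ± 93.6 CPM in the knockout and 70.9 ± 5.42 CPM in the wild type (log2 fold change 3.17, adjusted p = 6.99e-08). Cd14, which hands lipopolysaccharide to TLR4, averaged 49.4 ± 3.11 CPM in the knockout and 11.3 ± 0.997 CPM in the wild type (log2 fold change 2.13, adjusted p = 1.84e-07). Ikbke, the gene of the IKK-related kinase IKK epsilon, averaged 53.5 ± 4.62 CPM in the knockout and 11.2 ± 0.992 CPM in the wild type (log2 fold change 2.25, adjusted p = 2.10e-07). Rnf11, a subunit of the A20 ubiquitin-editing complex, averaged 443 ± 41.1 CPM in the knockout and 121 ± 12.2 CPM in the wild type (log2 fold change 1.88, adjusted p = 4.98e-07).

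Of 36 further targets, among them chemokines, colony-stimulating factors and proteases, 31 were tested, and 26 rose, 2 fell and 3 did not pass. Their median was 3.02 on the log2 scale. The shares were 83.9% higher and 6.45% lower, beside 31.9% higher and 32.1% lower over all genes tested. Of the 31, 8 (C3, Lcn2, Csf3, Csf2, Nos2, Cxcl2, Il6 and Tnf) passed the filter on low counts through the knockout libraries alone. For these 8 the filter favoured a difference, and their calls carry little weight. Among the other 23 targets, 18 rose, 2 fell and 3 did not pass, with 1.79 as the median. The 4 with the smallest adjusted p were C3, Lcn2, Ccl20 and Mmp3, of which C3 and Lcn2 are among the 8. The matrix protease gene Mmp3 averaged 2887 ± 117 CPM in the knockout and 15.9 ± 1.98 CPM in the wild type (log2 fold change 7.50, adjusted p = 1.04e-09). The 2 that fell, named after their values were seen, were Ccnd1, the gene of cyclin D1, by 0.84 on the log2 scale, and Irf1, an interferon regulatory factor, by 0.42. These targets were chosen from textbook lists with earlier results of these libraries known, so their count is a description of what such genes did here.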

How the data were processed

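The authors deposited 1 table of raw read counts per gene symbol, with 1 column per library and 0 columns of other samples. The submitters' processing notes list, without roles, limma 3.48.3 and edgeR 3.34.0, then HTSeq 0.11.2, STAR 2.7.1a and fastp 0.20.0, and name GRCm38 and mm10 as builds. Which annotation release and strand setting were used is not given. The columns were matched to samples by title. No label says that the replicates were separate cultures, so p-values may measure technical spread only.

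From the deposited counts, genes were kept by filterByExpr (edgeR 4.0.16, R 4.3.3), scaled by TMM (factors 0.967 to 1.035), and tested with edgeR's quasi-likelihood test across all 14877 genes, with Benjamini-Hochberg adjustment. The common biological coefficient of variation was 0.096. Intervals of fold changes are at 95%. Positions, exon lengths and overlaps came from GENCODE M21 on GRCm38, with all annotated isoforms joined, which lowers the per-kilobase level of genes with long, rarely used exons.

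Replicates differed beyond sampling noise. The chi-square per degree of freedom was 48.41, 42.07 and 3.41 for knockout libraries 1 and 2, 1 and 3, and 2 and 3, and 40.8, 29.71 and 4.61 for the wild-type libraries in the same order. Deviations of same-numbered libraries from their group means correlated at 0.44, 0.16 and 0.15, so the numbers were taken to pair the libraries, although libraries 2 and 3 correlated as well across numbers (0.15 and 0.19). The main test has no block, and a fit with the replicate number as a block was an alternative, beside DESeq2 1.42.0, upper-quartile factors, other filters, left-out libraries and a test against a fold change of 1.5.

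The 41 genes, the further lists, the tests and the rule for named genes (all 41, Ppp2ca, and up to 4 genes with the smallest adjusted p in each further list) were chosen with earlier results of these data known. Other genes named with values, among them Tlr3, Tlr5, Tlr6, Ccnd1, Irf1, Vwf, Kdr and Tek, fall outside this rule. In bulk RNA, fewer cells of a type and less RNA per cell cannot be told apart.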

Additional observations from a re-analysis of the deposited data

How the results depend on the processing

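No NF-kB gene changed direction in any alternative run. The counts of NF-kB genes were 24 higher and 9 lower, with 23 to 26 higher and 9 lower when 1 library was left out, and 28 and 9 with the replicate block or without both libraries numbered 1. Calls over all genes grew under the same settings, to 5721 higher and 5774 lower with the block and 5588 higher and 5535 lower without both libraries numbered 1, against 4752 and 4773. The block added Tnip2, Map3k7, Ikbkb and Ripk2 and changed no other call. DESeq2 gave 25 and 9, upper-quartile factors 24 and 9, no filter 24 and 9, and a minimum of 1 CPM in 3 libraries 23 and 9. Upper-quartile factors moved the median of all genes by -0.07 on the log2 scale. The test against a fold change of 1.5 asks for more and gave 14 higher and 3 lower, with 0 lower in the canonical arm and 1 higher and 1 lower in the noncanonical arm. Over all genes it gave 2009 higher and 1957 lower, among further regulators 12 and 4, and among further targets 1 lower. Under it Ppp2ca (log2 fold change -0.36) and Ppp2cb, the other catalytic subunit (0.54), did not pass. In the main edgeR test Ppp2cb was higher, at 125 CPM in the knockout and 85.9 CPM in the wild type (adjusted p = 6.34e-05). Leaving out 1 library gave 4258 to 4942 higher and 4199 to 4759 lower genes overall. Depth limits Bcl3, Icam1, Nfkbid and Traf1, which have few counts.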

Other observations

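The libraries numbered 1 differed from libraries 2 and 3 in a gene-specific way that ran the same way in both groups for many NF-kB genes. Of the 39 tested, 29 deviated with the same sign in both groups (74.4%), as did 77.4% of all genes tested. Nfkbib was lower in library 1 by 0.52 on the log2 scale in the knockout and by 0.49 in the wild type, and Relb by 0.42 in the knockout and 0.27 in the wild type. Tlr4 was higher in library 1 by 0.41 in the knockout and by 0.34 in the wild type, and Chuk by 0.22 in the knockout and 0.23 in the wild type. For these 4 genes the shift within a group was smaller than the difference between the groups.

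Cdh5, the gene of VE-cadherin, averaged 435 ± 21.4 CPM in the knockout and 415 ± 17.1 CPM in the wild type, although Pecam1 was below 1 CPM. Vwf, which encodes von Willebrand factor, averaged 5.69 ± 0.382 CPM in the knockout and 0.650 ± 0.112 CPM in the wild type, and Kdr, a receptor of vascular endothelial growth factor, 7.78 ± 0.402 CPM in the knockout and 1.65 ± 0.331 CPM in the wild type. Tek, the angiopoietin receptor gene, fell by 2.23 on the log2 scale, with 37 counts in the knockout and 188 in the wild type.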
